A study of Mus musculus with 12 samples.

Results

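The comparison is between the whole bone marrow of mice lacking both Fancc and Fancg (double knockout) and that of wild-type C57Bl/6 mice. The members are the 3 arrays titled as double knockout and the 3 titled as wild type, chosen by title, which makes 6 of the 12 arrays of the series. The other 6 arrays are labelled Fancc-/- (3) and Fancg-/- (3). They enter here through the shared variance estimate, through the choice of each gene's probe set and the brightness filter, both set over all 12 arrays, and as values set side by side. Marrow cells were flushed from the tibia and femur without culture or sorting, each mouse gave 1 RNA sample and 1 Affymetrix array, and no RNA was pooled. The double knockout is labelled Double Fancc-/-//Fancg-/-, null for both genes, and no treatment is given for any group. The labels give neither age, sex, strain background of the knockouts nor an array date. Of 17404 autosomal genes, 11527 were bright enough to test, each read on its probe set with the highest mean signal, and 5877 were not. Values are log2 signals, so a difference of 1 is a doubling.

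Fancc and Fancg encode proteins of the Fanconi anemia core complex. This ubiquitin ligase monoubiquitinates Fancd2 and Fanci and so starts the repair of DNA interstrand crosslinks. Loss of the pathway is known for failing blood formation, since stem and progenitor cells of the marrow are sensitive to crosslinks and to inflammatory signals. Whole marrow mixes maturing red cells, neutrophils, monocytes, B-cell precursors and rarer cells. In such a mixture, fewer cells of a type and less RNA per cell cannot be told apart.

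The targeted genes and the sex-linked genes were read first, as a check of the labels. Fancg was at 6.80, 6.86 and 6.86 in the 3 wild-type arrays and at 5.61, 5.83 and 5.78 in double knockout replicates 1 to 3, with no overlap. It fell by a log2 difference of -1.10 ± 0.16 (SE, limma adjusted p = 0.0112), and its other probe set differed by -1.33. Its call was lost without double knockout replicate 3 or wild-type replicate 2 (highest adjusted p 0.0629). On the 3 arrays labelled Fancg-/- it was at 6.55, 6.00 and 6.64, below wild type but above every double knockout array, and replicates 1 and 3 lay nearer to wild type than to the double knockout. The other probe set gave the same order (6.43, 5.92 and 6.67 there, 6.82 to 6.92 in wild type and 5.41 to 5.67 in the double knockout). The lower signal of the double knockout was thus not matched on the arrays labelled Fancg-/-, and each direction drawn from them rests on that label. Fancc was no such check. Its 3 probe sets differed by 0.04, -0.17 and -0.26, and whether their probes lie inside the deleted part is not given in the sources used here.

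Sex-linked transcripts split the groups. Xist, the RNA of the inactive X chromosome in female cells, was at 11.30, 12.15 and 12.23 in wild type and at 7.39, 7.06 and 5.99 in the double knockout. Eif2s3y, a Y-linked translation factor gene, was at 3.04, 3.20 and 2.89 in wild type and at 9.35, 8.85 and 8.81 in the double knockout. Kdm5d, a Y-linked histone demethylase gene, was at 3.21, 3.08 and 3.27 against 5.32, 5.67 and 5.33. On the 4 Uty probe sets the group means differed by 0.26 to 0.79. Between these groups, genotype and the sex marked by these transcripts cannot be told apart, and X and Y genes were left out of it. With Xist as a covariate, 0 genes were called, 327 had an unadjusted limma p below 0.05 and the lowest adjusted p was 0.526. Xist did not overlap between these groups, so this fit cannot separate genotype from sex and no conclusion is drawn from its 0 calls. All 588 genes called without that covariate kept their sign under it. Replicates 1 and 3 labelled Fancg-/- carried both kinds of mark, with Xist at 11.31 and 10.75 and Eif2s3y at 7.64 and 5.78. With the arrays labelled Fancg-/- left out of the model, but with the same probe sets and filter, 212 genes were called (79 rises and 133 falls). With only the double knockout and wild-type arrays in the model, 614 genes were called (243 rises and 371 falls).

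Double knockout replicate 1 stood apart from the other arrays of its group. Over all probe sets it correlated at 0.987 and 0.986 with replicates 2 and 3, which correlated at 0.994 with each other. With the 3 wild-type arrays it correlated at 0.987 to 0.990, and replicates 2 and 3 at 0.980 to 0.983. The median absolute difference over tested genes was 0.131 between replicates 2 and 3, 0.222 between replicates 1 and 2 and 0.219 between replicates 1 and 3. The 3' minus 5' signal of Actb, a mark of RNA integrity, was 0.26, 0.29 and 0.42 in the double knockout and 0.28, 0.32 and 0.21 in wild type. Array medians of all 12 arrays lay between 4.79 and 4.87. The results below are given with and without replicate 1.

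In the double knockout, 588 of 11527 genes (5.10%) were called changed by limma at an adjusted p below 0.05. Of these, 254 rose (2.20%) and 334 fell (2.90%), and the change was over 2-fold for 73 of the rises and 132 of the falls. All 3 double knockout arrays lay above all 3 wild-type arrays in 1450 genes (12.6%) and below them in 1939 (16.8%). Without double knockout replicate 1, 764 genes rose (6.63%) and 1002 fell (8.69%), and 575 of the 588 were called in the same direction again. List counts without replicate 1 are to be read beside the shares of 6.63% and 8.69%. Leaving out another array instead left 9 to 64 rises and 4 to 61 falls. The fewest calls, 9 rises and 4 falls, came without wild-type replicate 2. Only 12 of the 588 genes were called whichever of the 6 arrays was left out. Among the 81 called genes named by the rule for the text, those were Mt2, Lmna, Orc1, Asns and Fnip2. Of the 81, 79 kept their call without double knockout replicate 1, 18 and 6 without replicates 2 and 3, and 28, 5 and 18 without wild-type replicates 1, 2 and 3, and none changed sign in these fits.

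**Figure D1:**
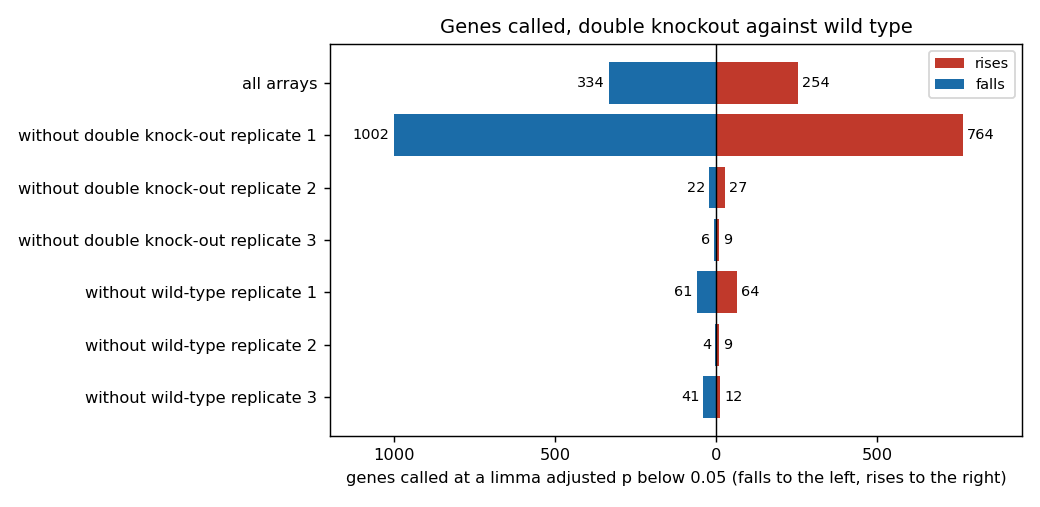
Bars show the number of genes called at a limma adjusted p below 0.05 in double knockout against wild type, with falls drawn to the left and rises to the right. The first bar uses all arrays (334 falls, 254 rises), and the others leave out 1 array each. Only leaving out double knockout replicate 1 gives a longer bar (1002 falls, 764 rises).

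B-cell genes were far lower in the double knockout. Of 31 tested genes of a B-cell list (35 genes), 24 fell and 0 rose, with a median log2 difference of -1.94, against 334 falls and a median of -0.01 over all 11527 tested genes. By array the median of the list was -1.63, -1.87 and -2.07 below the wild-type mean in replicates 1, 2 and 3. In 27 of the 31 genes all double knockout arrays lay below all wild-type arrays (16.8% of all tested genes did so). Without replicate 1, 26 of the 31 fell and the median was -1.99.

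Genes that assemble and test the first immunoglobulin chain were among the largest falls. Rag1, a subunit of the V(D)J recombinase, was at 7.84, 7.37 and 6.93 in wild type and at 3.06, 3.36 and 3.97 in the double knockout. All 3 knockout arrays lay far below the lowest wild-type array, replicate 1 lowest of all, and the difference was -3.92 ± 0.60 (limma adjusted p = 0.0116). The knockout signals lay below the array medians, as on all 3 double knockout arrays in 18 of the 334 called falls, so Rag1 passed the brightness filter through other arrays and the size of its difference is that of a dim signal. Vpreb1, part of the surrogate light chain that pairs with the heavy chain in pre-B cells, was at 8.99, 9.30 and 8.27 against 4.20, 5.21 and 5.70 (-3.82 ± 0.75, adjusted p = 0.0212). Here replicate 1 was the lowest array. Vpreb3 differed by -3.27 ± 0.54 and Igll1, the lambda5 partner of Vpreb1, by -2.58 ± 0.47. The other probe set of Igll1 differed by 0.23.

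Transcription factors and surface molecules of the lineage fell with them. Ebf1, a transcription factor that specifies the B lineage, was at 7.42, 7.75 and 7.07 in wild type and at 5.78, 4.71 and 4.57 in the double knockout. Replicate 1 was the least lowered array and still lay below every wild-type array, and the difference was -2.39 ± 0.40 (adjusted p = 0.0158). The 5 probe sets of Ebf1 differed by values from -2.39 to 0.05. Bach2, a repressor needed for B-cell development, fell by -2.91 ± 0.43 and Spib, an Ets factor, by -2.48 ± 0.47. The 3 probe sets of Bach2 differed by values from -3.18 to -0.17. Cd79b, a signalling subunit of the B-cell receptor, was at 10.06, 9.39 and 9.43 against 7.55, 7.29 and 7.29 (-2.26 ± 0.39). Ms4a1, which encodes CD20, fell by -2.25 ± 0.46, with replicate 1 at 8.79 and replicates 2 and 3 at 7.27 and 7.51. Fcrla and the scaffold gene Akap12 fell by -2.26 and -2.83. The 3 probe sets of Fcrla differed by values from -2.26 to -0.35. Outside the list, the largest falls included Niban3 (-3.31 ± 0.48) and Fcmr, an Fc receptor for IgM (-2.35 ± 0.47).

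The 7 tested list members that were not called, named here after their values were seen, were Fcer2a (-1.39), Il7r (-1.07), Tnfrsf13c (-0.34), Rag2 (-0.31), Pax5 (-0.21), Cd24a (0.07) and Ighm (0.12). Rag1 and Rag2, the paired recombinase genes, thus had unlike values on this array. The calls depended on which array was left out. The B-cell list had 5 falls without double knockout replicate 2, 0 without replicate 3, and 9, 0 and 9 without wild-type replicates 1, 2 and 3, while its median stayed between -2.04 and -1.77 in these fits. It had 23 falls when the arrays labelled Fancg-/- were left out of the model. With Xist as a covariate it had 0 falls and a median of -1.47.

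To show the DNA at such a gene, the 250 bases before the start of Igll1, a known target of Ebf1, are printed from RefSeq (GRCm38.p6, chr16:16863986-16864235, minus strand), 5′ to 3′ along the gene. Capitals mark the letters CCCNNGGG, the core of the Ebf1 motif, searched on both strands.
Igll1: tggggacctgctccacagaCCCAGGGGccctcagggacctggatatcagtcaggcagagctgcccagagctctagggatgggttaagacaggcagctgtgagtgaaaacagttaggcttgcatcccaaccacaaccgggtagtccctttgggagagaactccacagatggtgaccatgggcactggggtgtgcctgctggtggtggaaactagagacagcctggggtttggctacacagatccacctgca

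The match begins 231 bases before the start. Of 32851 promoter windows of this length, 11.8% held these letters. Of the 24 B-cell genes that fell, 19 had a window in the table, and 4 of their 20 windows held a match. A match describes the letters and is no measured binding site.

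MHC class II genes, which present antigen on B cells and other antigen-presenting cells, were lower as well. Of 10 tested genes, 6 fell and 0 rose, against 2.90% falls of all tested genes. The median difference was -0.86, and in all 10 every double knockout array lay below every wild-type array (16.8% of all tested genes did so). Ciita, the transactivator of these genes, was at 5.96, 5.65 and 5.87 in wild type and at 5.10, 4.75 and 4.38 in the double knockout (-1.08 ± 0.17, limma adjusted p = 0.0125). Its 3 probe sets differed by values from -1.08 to -0.08. H2-Eb1, a class II beta chain, was at 11.77, 11.59 and 11.70 against 10.79, 10.81 and 10.82 (-0.88 ± 0.22, adjusted p = 0.0447). The 3 knockout arrays lay close together in that gene. H2-Ob, a chain of the B-cell modulator H2-O, fell by -1.67 ± 0.43 and H2-DMb2 by -0.96 ± 0.23. Without replicate 1, 6 of the 10 fell and the median was -0.86. The list had 1 fall without wild-type replicate 1 and 0 without wild-type replicate 2 or 3 or double knockout replicate 2 or 3, while its median stayed between -0.88 and -0.85. It had 1 fall when the arrays labelled Fancg-/- were left out of the model.

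Of 13 plasma cell genes, 2 fell, against 2.90% of all tested genes, and the list's median was 0.01. Irf4, a transcription factor of activated B and plasma cells, was at 8.21, 9.02 and 8.32 in wild type and at 7.28, 7.27 and 6.96 in the double knockout (-1.35 ± 0.25, limma adjusted p = 0.0183). Slamf7 fell by -0.83 ± 0.15, but its double knockout signals lay below the array medians, so it passed the brightness filter through other arrays. Both lost their call without double knockout replicate 2 or 3 or wild-type replicate 2 (highest adjusted p 0.0949 for Irf4 and 0.0753 for Slamf7), and Irf4 also without wild-type replicate 3 and Slamf7 without wild-type replicate 1. Of 24 T-cell and NK-cell genes 0 were called by limma (5 at an unadjusted p below 0.05), and their median by array was 0.02, -0.33 and -0.46. Without replicate 1, 6 of the 24 fell, against 8.69% of all tested genes. Values of the smallest p were Tbx21, a T-box factor (-0.56 ± 0.17, adjusted p = 0.0715), and Gzmb, which encodes granzyme B (0.84 ± 0.29, adjusted p = 0.104).

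Red cell genes were higher, most of all in replicate 1. Of 28 tested erythroid genes (35 in the list), 6 rose and 0 fell, 27 had a positive difference, and the median was 0.61. Among all 11527 tested genes, 2.20% rose and 5530 had a positive difference. The median by array was 1.22 in replicate 1, 0.34 in replicate 2 and 0.52 in replicate 3, each above the wild-type arrays. Without replicate 1, 7 of the 28 rose and the median was 0.41. Add2, a red cell membrane skeleton protein gene, was at 6.75, 6.73 and 6.69 in wild type and at 8.43, 7.79 and 7.80 in the double knockout. It rose by 1.28 ± 0.22 (2.43-fold, limma adjusted p = 0.0159), and the groups did not overlap. The 5 probe sets of Add2 differed by values from 0.34 to 1.28. Tmod1, which caps actin filaments of the membrane skeleton, was at 7.48, 7.17 and 6.96 against 8.71, 8.08 and 8.35 (1.18 ± 0.19, adjusted p = 0.0147). Cldn13 rose by 1.06 ± 0.25, with replicate 1 at 11.07 and the others at 9.91 and 9.94. Icam4, an adhesion molecule of erythroid cells, rose by 0.96 ± 0.22 (adjusted p = 0.032).

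Genes of heme synthesis and iron handling followed. Of 25 tested, 7 rose and 1 fell, against 2.20% rises and 2.90% falls of all tested genes. The list's median was 0.37, with medians by array of 0.69, 0.28 and 0.25. Urod, the enzyme that makes coproporphyrinogen, was at 11.03, 10.59 and 10.43 in wild type and at 11.83, 11.28 and 11.57 in the double knockout (0.88 ± 0.20, limma adjusted p = 0.032). Glrx5, a mitochondrial glutaredoxin of iron-sulfur cluster assembly, was at 11.32, 11.11 and 11.02 against 11.98, 11.72 and 11.85 (0.70 ± 0.11, adjusted p = 0.0125). Fech, which inserts iron into the ring, rose by 0.72 ± 0.17, although its 4 probe sets ranged from -0.45 to 0.90. Blvrb, a biliverdin reductase, rose by 0.81 ± 0.17. Without replicate 1, 8 rose and 1 fell. The calls were few without the other arrays. Erythroid rises numbered 3, 0, 3, 0 and 0, and heme and iron rises 1, 0, 3, 0 and 0, without double knockout replicates 2 and 3 and wild-type replicates 1, 2 and 3. The medians of both lists stayed positive in those fits (0.51 to 0.80 and 0.30 to 0.45). With the arrays labelled Fancg-/- left out of the model, 3 erythroid genes rose, and 1 heme and iron gene rose and 1 fell.

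Icam4 is the 1 gene among the called erythroid genes with a window that holds the letters AGATAA, the motif read by the Gata factors of red cell precursors. Its 250 bases before the start (RefSeq, GRCm38.p6, chr9:21029182-21029431, plus strand) carry it on the opposite strand, in capitals.
Icam4: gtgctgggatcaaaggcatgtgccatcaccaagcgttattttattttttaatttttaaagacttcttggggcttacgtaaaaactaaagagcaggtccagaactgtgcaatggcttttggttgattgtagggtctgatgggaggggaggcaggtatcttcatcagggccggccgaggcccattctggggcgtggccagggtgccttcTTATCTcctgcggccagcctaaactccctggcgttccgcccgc

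Of all 32851 windows, 9.99% held these letters on either strand. Of the 6 erythroid genes that rose, 4 had a window and 1 of the 4 windows held a match.

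Stress-response genes rose in part. Of 33 tested genes of the unfolded protein and integrated stress response, 6 rose and 0 fell (median 0.26). The 6 were Slc7a11, Slc3a2 and Slc7a5, which encode amino acid transporter subunits, Asns and Aars, which encode an amino acid synthesis enzyme and a tRNA synthetase, and the pseudokinase gene Trib3. Slc3a2 (0.90) and Slc7a5 (0.82) are named here after their values were seen. Against 2.20% rises among all tested genes, this count carries no test, and 3 rose when the arrays labelled Fancg-/- were left out of the model. The chaperone genes of the list were not called, with Hspa5 at -0.04 and Hsp90b1 at -0.41, also read after their values were seen. The list's medians by array were 0.03, 0.56 and 0.18, and without replicate 1 13 rose and 1 fell.

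Asns, asparagine synthetase, was at 8.61, 8.63 and 8.41 in wild type and at 10.06, 9.92 and 9.72 in the double knockout. All 3 knockout arrays lay above all wild-type arrays, the difference was 1.35 ± 0.17 (limma adjusted p = 0.0073), and it stayed called whichever array was left out (highest adjusted p 0.0355). Slc7a11, the cystine importer, was at 5.04, 6.25 and 5.68 against 7.27, 8.25 and 8.59. It rose by 2.38 ± 0.43 (5.22-fold, adjusted p = 0.018), and its other probe set differed by 0.28. Trib3, a pseudokinase that is a target of Atf4, was at 5.17, 5.19 and 5.51 against 6.17, 8.27 and 7.77 (2.11 ± 0.44, adjusted p = 0.0252), so that replicate 1 carried less than the others. Aars, alanyl-tRNA synthetase, rose by 1.07 ± 0.20. Slc7a11, Trib3 and Aars lost their call without any array other than double knockout replicate 1, with adjusted p values up to 0.117.

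The 250 bases before the start of Slc7a11 (RefSeq, GRCm38.p6, chr3:50443614-50443863, minus strand) are shown because they hold 2 copies of TGATGNAA, the composite element read by Atf4, once on each strand. Capitals mark them, and they begin 66 and 47 bases before the start. This motif was picked after the values were seen.
Slc7a11: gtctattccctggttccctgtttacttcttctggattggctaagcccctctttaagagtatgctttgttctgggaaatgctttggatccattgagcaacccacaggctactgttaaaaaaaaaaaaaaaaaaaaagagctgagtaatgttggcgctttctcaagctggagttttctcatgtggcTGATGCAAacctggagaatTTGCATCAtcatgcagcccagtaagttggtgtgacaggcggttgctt

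The letters occurred in 3.45% of all windows and 2 or more times in 0.0396%. Of the 5 called genes of the list with a window, 3 (Slc7a11, Asns and Aars) held a match.

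Antioxidant genes, a list that shares Slc7a11 with the one above, rose in part. Of 24 oxidative stress genes, 6 rose and 0 fell (median 0.19), against 2.20% rises of all tested genes. Without replicate 1 the list's counts were the same (median 0.23), against 6.63% rises of all tested genes. Sod2, the mitochondrial superoxide dismutase, was at 9.28, 9.44 and 9.37 in wild type and at 9.82, 10.28 and 10.35 in the double knockout (0.79 ± 0.14, limma adjusted p = 0.018). Prdx2, the abundant peroxiredoxin of red cells, was at 11.74, 11.40 and 11.37 against 12.44, 11.88 and 12.24 (0.68 ± 0.13, adjusted p = 0.0212). The other probe set of Prdx2 differed by -0.24, and the 4 of Sod2 by values from -0.03 to 0.79. Of the 81 called genes named by the rule, 47 had several probe sets and 11 had one of the opposite sign. Gclm, the modifier subunit of glutathione synthesis, rose by 0.73 ± 0.19 at an adjusted p of 0.0499, and lost that call when any 1 array was left out. The list had 0 or 1 rises when an array other than double knockout replicate 1 was left out, and 2 without the arrays labelled Fancg-/- in the model.

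The metallothionein genes Mt1 and Mt2 rose. Mt2, a zinc-binding metallothionein, was at 7.92, 8.56 and 8.32 in wild type and at 10.83, 10.74 and 10.97 in the double knockout, where the 3 arrays lay close together. The rise of 2.58 ± 0.28 (5.98-fold, limma adjusted p = 0.00438) stayed called without each array in turn (highest adjusted p 0.0263). Mt1 was at 9.34, 9.50 and 9.38 against 10.56, 10.91 and 11.08 (1.44 ± 0.26, adjusted p = 0.018), and its other probe set differed by 0.41. Slc30a1, the zinc exporter of the plasma membrane, rose by 0.92 ± 0.24, with replicate 1 at 7.28 and the others at 8.02 and 8.47. Mt1 and Slc30a1 lost their call without any array but double knockout replicate 1 (adjusted p up to 0.0914 and 0.177). The other 12 tested genes of the zinc list, mostly transporters, were not called, and the list's median was close to 0. Thus 3 of its 15 tested genes rose, against 2.20% of all tested genes. Without replicate 1, 5 rose and 2 fell. With the arrays labelled Fancg-/- left out of the model, 2 rose.

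The window of Mt2 (RefSeq, GRCm38.p6, chr8:94172368-94172617, plus strand) is shown for its 3 copies of TGCACNC or TGCGCNC, the core of the metal response element, in capitals on either strand, the first beginning 223 and the last 50 bases before the start. This motif too was picked after the values were seen.
Mt2: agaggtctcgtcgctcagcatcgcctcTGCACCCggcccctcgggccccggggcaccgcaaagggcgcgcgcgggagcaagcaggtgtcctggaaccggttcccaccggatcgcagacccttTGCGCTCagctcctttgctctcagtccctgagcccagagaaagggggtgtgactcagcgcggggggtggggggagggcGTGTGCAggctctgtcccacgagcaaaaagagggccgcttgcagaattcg

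Letters this short were common. They occurred in 21.4% of all windows, and 5.17% had 2 or more copies. All 3 genes of the list that rose held at least 1.

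Immediate early genes, which cells switch on within minutes of a stimulus or of handling, were lower, and mostly in replicates 2 and 3. Of 30 tested genes, 13 fell and 0 rose, against 2.90% falls of all tested genes. The list's median was -1.05 over the group and -0.34, -1.51 and -1.52 in replicates 1, 2 and 3. The wild-type arrays themselves ran from -0.47 to 0.31, so that the list's median in replicate 1 lay within the wild-type range. Without replicate 1, 20 of the 30 fell and the median was -1.51. Fos was at 13.36, 13.37 and 13.57 in wild type and at 12.80, 10.84 and 11.22 in the double knockout (-1.81 ± 0.36, limma adjusted p = 0.0217). Jun, its partner in AP-1, was at 12.04, 12.46 and 12.65 against 11.47, 9.80 and 9.59 (-2.09 ± 0.40, adjusted p = 0.0191). Egr1, a zinc finger factor, was at 11.15, 12.61 and 12.33 against 11.09, 9.07 and 8.88, so that double knockout replicate 1 was at the level of wild-type replicate 1 (-2.35 ± 0.52, adjusted p = 0.0301). Klf2 fell by -1.79 ± 0.40. The list had 1 fall without double knockout replicate 2, 0 without replicate 3, and 8, 0 and 1 without wild-type replicates 1, 2 and 3, and 6 when the arrays labelled Fancg-/- were left out of the model.

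Inflammatory genes showed a smaller split between arrays. Of 28 tested genes of NF-kB signalling and inflammatory cytokines, 1 rose and 2 fell, against 2.20% rises and 2.90% falls of all tested genes. The list's medians by array were 0.09, -0.46 and -0.58. The medians of the wild-type arrays ran from -0.37 to 0.22, so that replicate 1 lay within their range and the others below it. Ptgs2, the inducible cyclooxygenase, was at 9.26, 9.99 and 9.71 in wild type and at 8.93, 5.15 and 5.62 in the double knockout (-3.09 ± 0.79, limma adjusted p = 0.046). Ccl3, a chemokine, was at 11.02, 11.27 and 11.63 against 9.91, 9.07 and 8.95 (-2.00 ± 0.29, adjusted p = 0.0112), lower in all 3 arrays. Sod2 was the member that rose. Without replicate 1, 4 rose and 7 fell. Of 19 toll-like receptor genes 1 fell, Tlr1, by -1.37 ± 0.26 (adjusted p = 0.0183), against 2.90% falls of all tested genes. No gene of 30 type I interferon genes and of 20 genes of interferon gamma and MHC class I was called by limma (medians -0.17 and -0.12, with 6 and 2 genes at an unadjusted p below 0.05). Values of the smallest p there were Ddx58, an RNA sensor (-0.46 ± 0.14, adjusted p = 0.0672), Ifit2 (-0.73 ± 0.23, 0.0835), Nlrc5 (-0.79 ± 0.30, 0.14) and Cxcl10 (1.20 ± 0.50, 0.167).

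**Figure D2:**
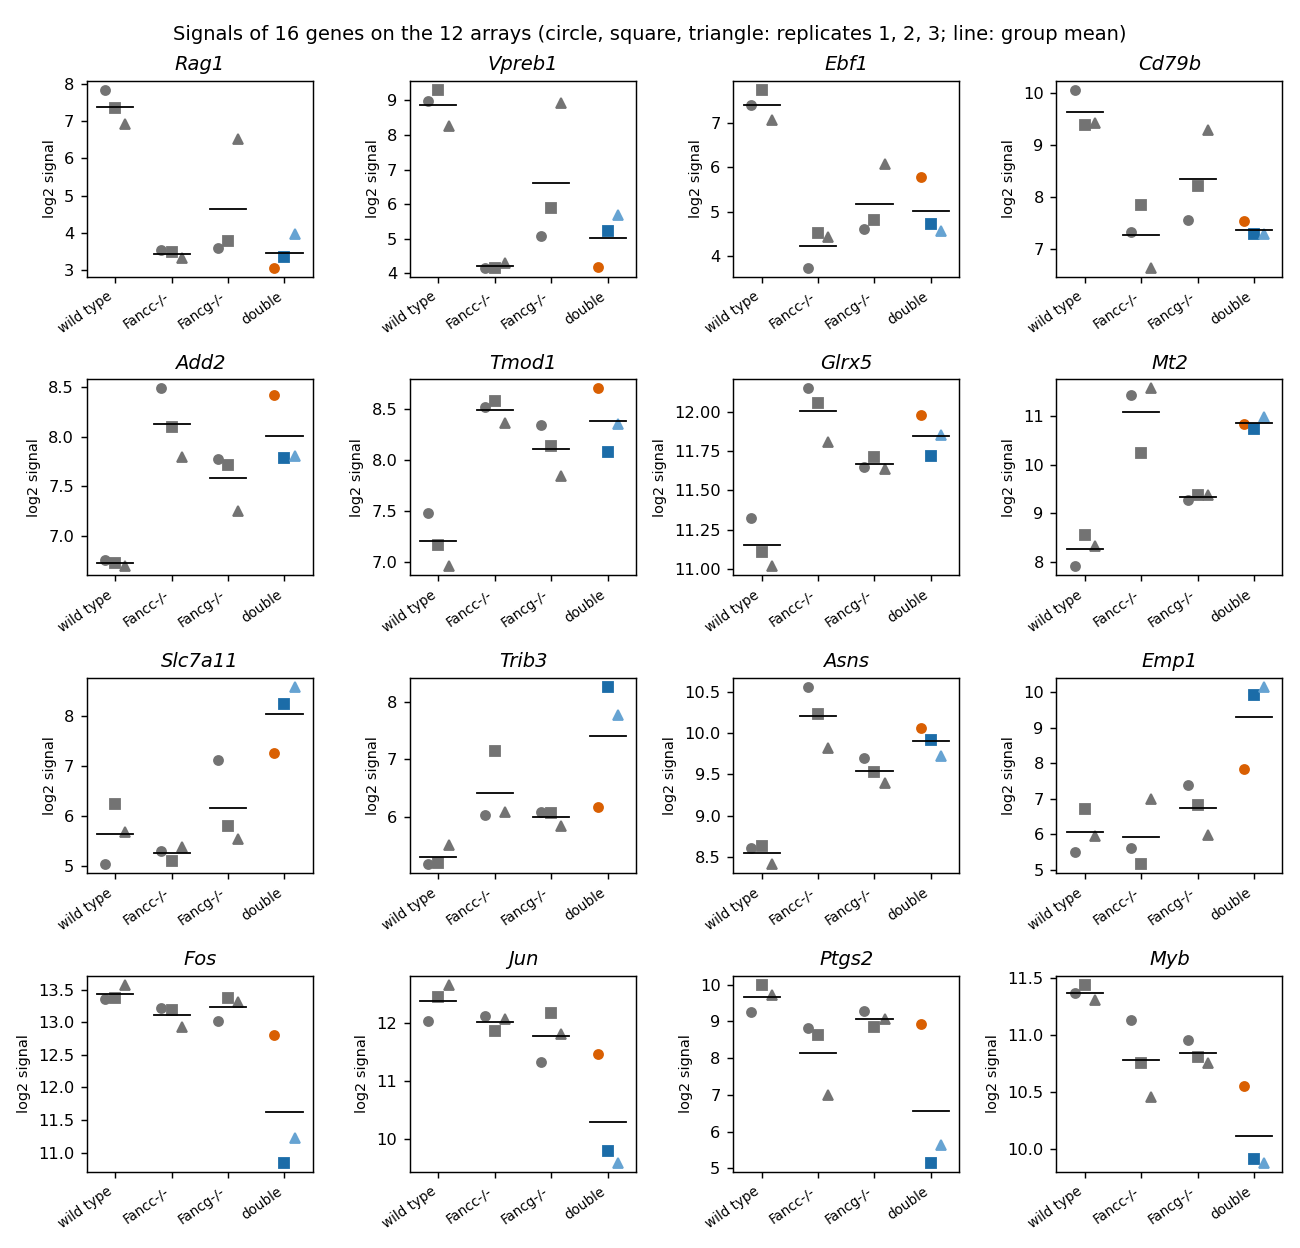
Each panel shows the log2 signal of 1 gene on the 12 arrays by group, with circles, squares and triangles for replicates 1, 2 and 3 and a line at the group mean. Double knockout arrays are coloured, replicate 1 in orange. For Fos, Jun and Ptgs2 the orange circle lies near the wild-type arrays (Ptgs2 8.93 against 5.15 and 5.62), whereas for Mt2 and Rag1 the 3 double knockout arrays lie together.

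The largest rises outside these groups concerned genes of varied function, and most were smaller in replicate 1. Emp1, an epithelial membrane protein gene, was at 5.52, 6.72 and 5.94 in wild type and at 7.84, 9.93 and 10.15 in the double knockout. It had the largest rise of any called gene with a standard symbol, 3.25 ± 0.63 (9.49-fold, limma adjusted p = 0.0204), while its other probe set differed by 0.06. Dusp16, a phosphatase of MAP kinases, was at 5.49, 6.47 and 5.97 against 7.90, 8.64 and 8.88 (2.50 ± 0.51, adjusted p = 0.0238). Its other probe set differed by -0.11. Gpr137b was at 7.08, 7.12 and 7.16 against 7.57, 9.76 and 10.06 (2.01 ± 0.51, adjusted p = 0.0444), with replicate 1 barely above wild type. The 4 probe sets of Gpr137b differed by values from 0.27 to 2.01.

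The others of the 15 largest rises were Rhov (2.33), the carbonyl reductase gene Cbr3 (2.09), the zinc finger gene Plagl1 (2.06), Lmna (2.05), Tgm2 (1.95), Cttnbp2nl (1.88), Klf9 (1.80), Rprd2 (1.76) and Metrnl (1.58). The probe sets of Plagl1 ranged from 0.17 to 2.06, those of Tgm2 from -0.03 to 1.95 and those of Metrnl from -0.04 to 1.58. Those of Cttnbp2nl ranged from 0.17 to 2.02. The wild-type signals of Plagl1 lay below the array medians, so it passed the brightness filter through other arrays. Lmna, which encodes the nuclear lamins A and C, was at 7.05, 7.60 and 6.91 against 8.72, 9.29 and 9.69 and stayed called without each array in turn (highest adjusted p 0.0263). Its 5 probe sets nevertheless ranged from -0.07 to 2.05. Klf9, a Krüppel-like factor, was at 8.80, 9.65 and 9.47 against 10.83, 11.22 and 11.26, and all 7 of its probe sets were positive (0.24 to 1.80). The 8 probe sets of Rprd2 ranged from -1.42 to 1.76, so its direction depends on the probe set. Every gene of this and the previous paragraph except Lmna lost its call when any array other than double knockout replicate 1 was left out, with adjusted p values up to 0.179.

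Stem and progenitor genes were lower in part. Of 23 tested, 5 fell and 1 rose (median -0.24), against 2.90% falls and 2.20% rises of all tested genes. Without replicate 1, 8 fell and 1 rose, against 8.69% falls and 6.63% rises of all tested genes. Among the 5 falls was Egr1, shared with the immediate early list, where double knockout replicate 1 was at the level of a wild-type array. Myb, a transcription factor of proliferating progenitors, was at 11.37, 11.44 and 11.31 in wild type and at 10.55, 9.91 and 9.88 in the double knockout. It fell by -1.26 ± 0.19 (limma adjusted p = 0.0114), on 3 probe sets alike (-1.31 to -1.26), and lost its call only without double knockout replicate 3 or wild-type replicate 2 (highest adjusted p 0.0642). Erg, an Ets factor of stem cells, was at 6.89, 6.90 and 6.87 against 6.49, 5.45 and 5.22 (-1.17 ± 0.29, adjusted p = 0.0434). Mllt3, a gene of stem cell maintenance, was at 5.57, 5.66 and 5.38 against 6.83, 6.13 and 6.61 (0.99 ± 0.20, adjusted p = 0.0217). The 3 probe sets of Mllt3 differed by values from 0.02 to 0.99, and the 2 of Erg by -1.17 and -0.27. Prom1 was at 9.45, 9.55 and 9.27 against 8.62, 8.47 and 8.27 (-0.97 ± 0.18, adjusted p = 0.018). Erg and Prom1 lost their call without any array but double knockout replicate 1 (adjusted p up to 0.177 and 0.0918). Mllt3 lost its call without double knockout replicate 3 or any wild-type array (adjusted p up to 0.103). The list had 1, 0, 2, 0 and 1 falls without double knockout replicates 2 and 3 and wild-type replicates 1, 2 and 3, and 2 without the arrays labelled Fancg-/- in the model.

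Genes of an early neutrophil list, which holds granule genes and others such as Gfi1, were lower too. All 17 tested members had a negative difference, 6 fell, and the median was -0.33, with -0.41, -0.20 and -0.39 by array. Of all 11527 tested genes, 5997 had a negative difference and 2.90% fell. With the arrays labelled Fancg-/- left out of the model, 1 of the 17 fell. Gfi1, a repressor needed for neutrophil formation, was at 8.19, 7.75 and 7.65 in wild type and at 6.61, 5.86 and 6.85 in the double knockout (-1.42 ± 0.30, limma adjusted p = 0.0252). Ms4a3, a gene of granulocyte-monocyte progenitors, was at 11.91, 11.62 and 11.41 against 11.17, 11.13 and 10.80 (-0.61 ± 0.13, adjusted p = 0.0257). Igsf6 and Tmed3 fell by -0.68 and -0.51, and Tmed3 lost its call whichever array was left out. With replicate 1 left out, 6 of the 17 fell, and with another single array left out, 0 or 1. Of 25 late neutrophil genes 1 fell, Mcemp1 (-0.59 ± 0.14, adjusted p = 0.0422).

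In the other blood lineages 0 or 1 genes per list were called, and such counts of 18 to 25 genes lie near the 5.10% called of all tested genes. Of 18 eosinophil, basophil and mast cell genes 1 fell, Cd200r3 (5.47, 6.16 and 5.83 in wild type against 4.63, 4.80 and 3.93, -1.37 ± 0.29, limma adjusted p = 0.0283), while the median of the list was -0.68. The double knockout signals of Cd200r3 lay below the array medians, and its other probe set differed by -0.06. Cd200r3 lost its call without any array but double knockout replicate 1 (adjusted p up to 0.122). Of 18 megakaryocyte and platelet genes 1 fell, the Ets factor Fli1 (-0.84 ± 0.19, adjusted p = 0.0321). Of 25 monocyte and macrophage genes 0 were called (median -0.12, 5 at an unadjusted p below 0.05), with Hpgd at -2.00 ± 0.72 (adjusted p = 0.119) and Mrc1, the mannose receptor, at -0.75 ± 0.27 (adjusted p = 0.12). Among 23 leukemia-associated genes, 3 fell, namely Trib2 (-1.62 ± 0.25, adjusted p = 0.0125), Erg and Myc (-0.76 ± 0.20, adjusted p = 0.0476). The 3 probe sets of Trib2 differed by values from -1.62 to 0.06.

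Markers of tissue around the marrow were also read. Of 21 stroma, bone and vessel genes 0 were called by limma (3 at an unadjusted p below 0.05), and their medians by array were -0.37, 0.06 and 0.05, so that replicate 1 was the lowest. Their part in the spread of replicate 1 was not tested. Gsn (-0.42 ± 0.16, limma adjusted p = 0.141) and Igfbp4 (-0.45 ± 0.18, adjusted p = 0.15) had the smallest p. Of 10 skeletal muscle genes tested among 18, 0 were called and 0 had an unadjusted p below 0.05 (Tcap 0.17, Mylpf 0.19).

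**Figure D3:**
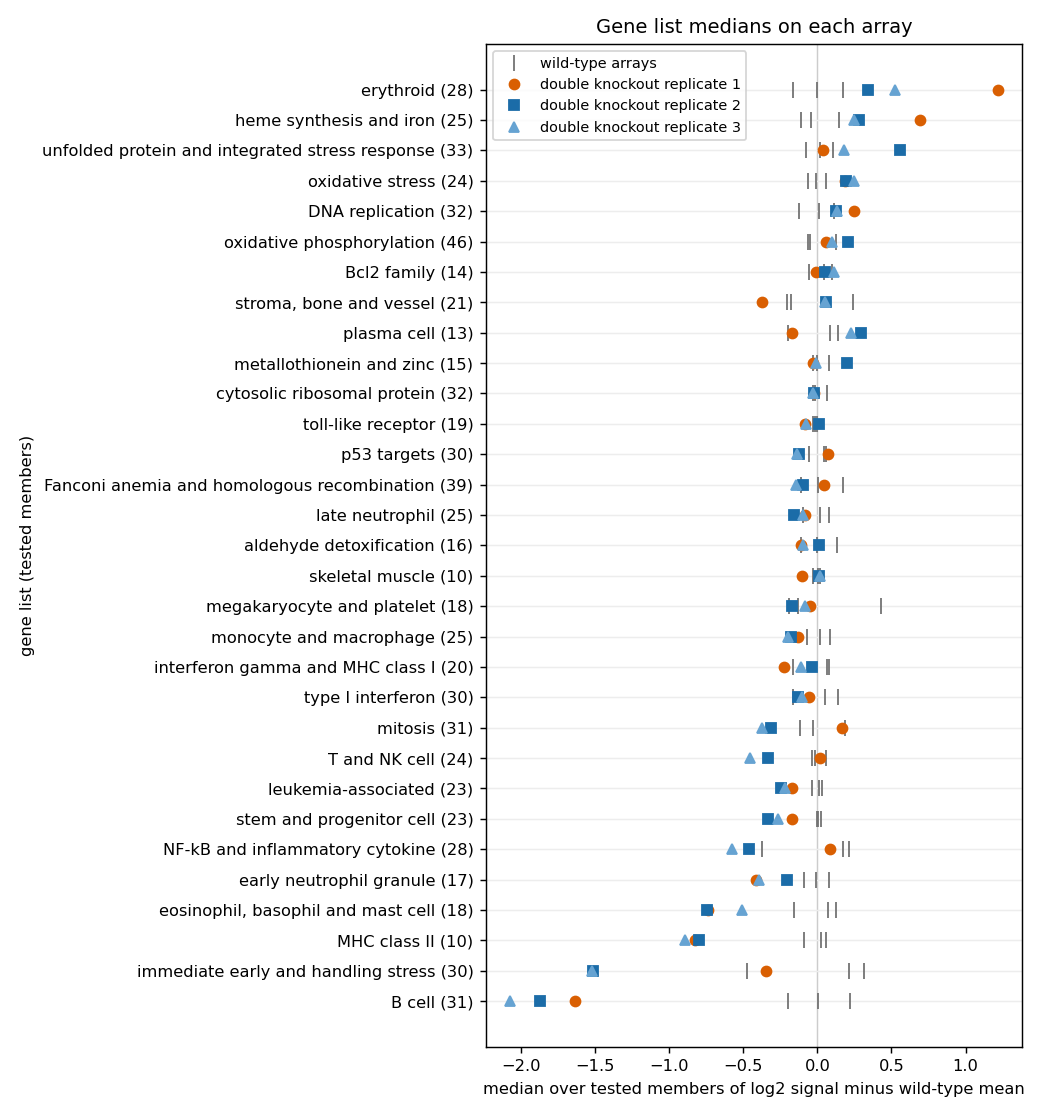
For each of 31 gene lists (number of tested members in brackets), the median over members of the log2 signal minus the wild-type mean is drawn for each double knockout array (orange circle, replicate 1; blue square and triangle, replicates 2 and 3) and each wild-type array (grey tick). The B-cell list is low on all 3 double knockout arrays (-1.63, -1.87 and -2.07), whereas the immediate early list is low on replicates 2 and 3 (-1.51 and -1.52) and the erythroid list is highest on replicate 1 (1.22).

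Genes of the DNA repair pathway were read as well. Of 39 tested genes of the Fanconi anemia pathway and homologous recombination, 1 fell, Fancg itself, and 0 rose (median -0.06), against 2.90% falls and 2.20% rises of all tested genes. Without replicate 1, 3 fell, and 8.69% of all tested genes did. Of 30 p53 targets, 1 rose and 2 fell. Bbc3, which encodes the death-inducing protein Puma, was at 7.02, 7.83 and 7.85 in wild type and at 8.13, 8.77 and 8.96 in the double knockout (1.06 ± 0.27, limma adjusted p = 0.0478). Rrm2b, a ribonucleotide reductase subunit, was at 8.00, 7.51 and 7.32 against 6.76, 6.42 and 6.37 (-1.10 ± 0.20, adjusted p = 0.018), and the damage sensor gene Xpc fell by -0.84 ± 0.18. Without replicate 1, 3 p53 targets rose and 8 fell, against 6.63% rises and 8.69% falls of all tested genes. Of 14 Bcl2 family genes, 2 rose, Bbc3 and Bcl2l11, which encodes Bim (1.18 ± 0.27, adjusted p = 0.0329, with all 5 probe sets between 1.02 and 1.53). Bbc3, Xpc and Bcl2l11 lost their call without any array but double knockout replicate 1 (adjusted p up to 0.192, 0.0999 and 0.146). Rrm2b lost its call without double knockout replicate 2 or 3 or wild-type replicate 1 or 2 (adjusted p up to 0.0918).

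Some DNA replication genes rose. Of 32 tested, 4 rose (3 without the arrays labelled Fancg-/- in the model) and 0 fell, 27 had a positive difference, and the median was 0.14. Among all 11527 tested genes, 2.20% rose and 5530 had a positive difference. Orc1, a subunit of the origin recognition complex, was at 6.65, 6.86 and 6.70 in wild type and at 7.77, 7.73 and 7.89 in the double knockout (1.06 ± 0.12, limma adjusted p = 0.00438), and stayed called without each array in turn. Its other probe set differed by 0.49. Ccne1, which encodes cyclin E1, was at 8.56, 8.40 and 8.21 against 9.01, 9.21 and 9.29 (0.78 ± 0.14, adjusted p = 0.0166). Orc6 and the chromatin assembly gene Chaf1b rose by 0.61 and 0.59. Of 31 mitosis genes 0 were called by limma (4 at an unadjusted p below 0.05), and their medians by array split into 0.17 in replicate 1 and -0.31 and -0.38 in replicates 2 and 3. Without replicate 1, 7 of the 31 fell, against 8.69% of all tested genes. Among them Ttk, a spindle checkpoint kinase, was at 8.33, 8.17 and 8.01 in wild type and at 7.95, 6.78 and 7.22 in the double knockout (-0.85 ± 0.27, adjusted p = 0.0821).

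Housekeeping lists stayed close to 0. Of 46 respiratory chain genes 1 rose, Ndufa5 (0.49 ± 0.12, limma adjusted p = 0.0447), although 39 of the 46 had a positive difference (5530 of all 11527 tested genes did). Of 32 cytosolic ribosomal protein genes 0 were called (median -0.02, 1 at an unadjusted p below 0.05), with Rpl12 at -0.60 ± 0.24 (adjusted p = 0.144) and Rpl37 at -0.28 ± 0.16 (adjusted p = 0.339). Of 16 genes of aldehyde detoxification, which removes a source of the crosslinks that the Fanconi pathway repairs, 0 were called and 1 had an unadjusted p below 0.05. Aldh1a1 was at 9.26, 9.00 and 8.84 against 10.04, 9.37 and 9.45 (0.59 ± 0.19, adjusted p = 0.0933), with replicate 1 highest. Aldh1b1 differed by -0.75 ± 0.35.

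The spread between replicate 1 and the other 2 double knockout arrays can be read gene by gene. Replicate 1 lay more than 2-fold above both others in 193 tested genes and more than 2-fold below both in 96. For replicate 2 these counts were 9 and 0, for replicate 3 9 and 11, and for wild-type replicates 1, 2 and 3 they were 21 and 49, 5 and 8, and 1 and 3. Among called rises the median distance from the wild-type mean was 0.60, 0.79 and 0.85 in replicates 1, 2 and 3, and among called falls it was -0.57, -0.99 and -1.04. These genes were called with replicate 1 among the data, so their order is a description.

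Replicate 1 was not used to call the 764 rises and 1002 falls found without it, and so can be set against them. It lay on the same side of the wild-type mean in 604 of the rises and 875 of the falls, and beyond the range of the 3 wild-type arrays in 483 and 688. At least 0.5 of the distance of replicates 2 and 3 was reached in 226 of the rises and 301 of the falls. Since the wild-type arrays are shared by both sides, these counts carry no test.

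By list, replicate 1 exceeded both others by more than 2-fold in 14 of 30 immediate early genes, 11 of 28 inflammatory genes, 7 of 28 erythroid genes, 4 of 31 B-cell genes and 4 of 24 T-cell and NK-cell genes, against 193 of 11527 genes in all. It was more than 2-fold below both in 4 of 33 stress-response genes (Trib3, Chac1, Sesn2 and Nupr1) and in 2 of 21 stroma genes (Col1a1 and Col1a2). The erythroid ones were Epb42, Rhag, Klf1, Tfrc, Tal1, Cldn13 and Kel. Chac1, a glutathione-degrading target of Atf4, was at 5.70, 5.67 and 5.99 in wild type and at 5.78, 8.56 and 8.51 in the double knockout. Replicate 1 was thus at the wild-type level, and the difference was 1.83 ± 0.55 with it (limma adjusted p = 0.0731) and 2.75 without it (adjusted p = 1.58e-05). Niban2 was at 7.85, 7.89 and 7.80 against 7.89, 10.53 and 10.39 (1.76, adjusted p = 0.0668, and 2.61 without replicate 1, adjusted p = 1.58e-05).

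Tbc1d2, Ramp3 and Col1a2 had replicate 1 below even the lowest wild-type array. Tbc1d2, a Rab GTPase-activating protein gene, was at 7.45, 7.35 and 7.47 in wild type and at 6.76, 9.34 and 9.28 in the double knockout, and Ramp3, a receptor activity modifying protein gene, at 5.26, 5.09 and 5.09 against 4.91, 7.37 and 7.51. Col1a2, a collagen chain gene, was at 7.55, 8.11 and 7.27 against 5.95, 9.85 and 7.94, where replicates 2 and 3 also lay far apart. Emp1, Gpr137b and Cttnbp2nl, given above, complete the 8 genes with the widest gaps below. Above both others, the widest gaps were those of Ptgs2, Egr3, Slc35a5, Nxpe2, Lifr, Fosl1, Gzma and Egr1. Slc35a5, a sugar transporter family gene, was at 8.93, 9.08 and 8.84 against 8.79, 6.24 and 6.58. Gzma, which encodes granzyme A, was at 6.93, 7.21 and 6.79 against 8.25, 6.22 and 5.95, so that replicate 1 lay above the wild-type range and the others below it. The same held for Lifr, a cytokine receptor gene (5.31, 4.95 and 4.90 against 6.26, 4.08 and 3.72), and Nxpe2 (8.02, 7.79 and 7.61 against 8.61, 6.37 and 6.40). Egr3 (8.41, 5.94 and 6.14 in the double knockout) and Fosl1 (8.77, 6.74 and 6.50) had wild-type values of 6.76 to 8.69 and 6.98 to 8.84.

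**Figure D4:**
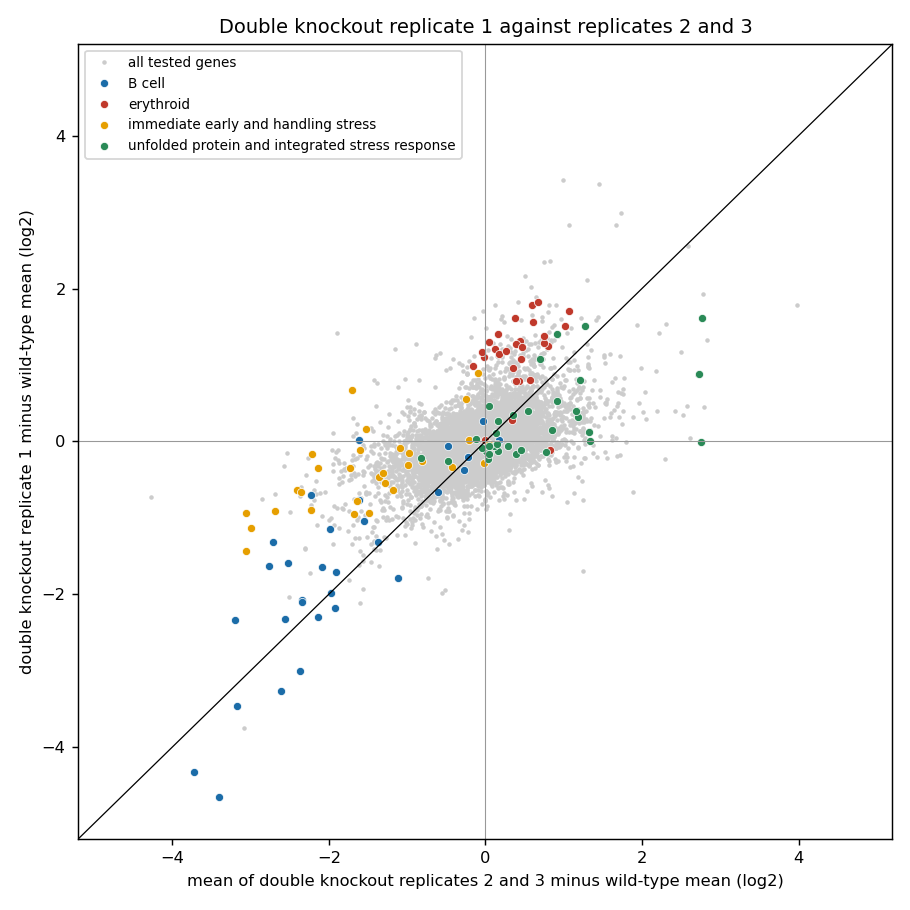
Each point is a tested gene, with the mean of double knockout replicates 2 and 3 minus the wild-type mean on the horizontal axis and replicate 1 minus the wild-type mean on the vertical axis (both log2), and the line marks equal values. Most B-cell genes lie low on both axes, most immediate early genes above it at the left (medians -0.34 for replicate 1 and -1.51 and -1.52 for the others), most erythroid genes above it, and 4 stress-response genes more than 2-fold below both other arrays, among them Chac1.

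Against the single knockouts, limma called no autosomal gene. The double knockout differed from Fancc-/- in 0 genes (0.00%) at an adjusted p below 0.05 and in 2273 at an unadjusted p below 0.05. Against the arrays labelled Fancg-/- the counts were 0 (0.00%) and 1662, and Fancg itself was only partly lowered on those arrays. A count of 0 does not show that the groups were alike. Without double knockout replicate 1, 1238 genes were called against Fancc-/- (645 higher and 593 lower in the double knockout) and 966 against those labelled Fancg-/- (481 and 485). Without Fancc-/- replicate 3, 300 were called against Fancc-/-.

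The genes of smallest p against Fancc-/- were Cd86, Slc25a39 and Thbd, all at an adjusted p of 0.0609. Cd86, a costimulatory ligand, was higher in the double knockout by 1.78 ± 0.25. It was at 7.28, 8.13 and 8.10 there and at 6.40, 6.33 and 6.63 in wild type, from which it rose by 1.38 ± 0.25 (adjusted p = 0.018). Slc25a39, a mitochondrial carrier gene, differed from Fancc-/- by -0.64 ± 0.10 and Thbd, which encodes thrombomodulin, by 1.32 ± 0.20. Against the arrays labelled Fancg-/- the smallest p belonged to Fnip2 (1.26 ± 0.18, adjusted p = 0.149), Prom1 (-1.03 ± 0.18, 0.172) and Ms4a3 (-0.77 ± 0.13, 0.172). Fnip2, which binds folliculin, was at 8.57, 9.07 and 9.28 in the double knockout and at 7.38, 7.59 and 7.39 in wild type, and that rise of 1.52 ± 0.18 (adjusted p = 0.00438) stayed called without each array in turn.

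The 3 knockout groups share the wild-type arrays, so their differences from wild type are only set side by side. The B-cell list's median was -1.94 in the double knockout, -2.14 in Fancc-/- and -1.33 on the arrays labelled Fancg-/-. The last was -1.69, -1.49 and -0.61 by array, and the third of these arrays was made from 0.91 µg of RNA, where all others had 2 µg, and carried both sex marks. Rag1 differed by -3.92, -3.94 and -2.75 in that order, and was at 3.60, 3.77 and 6.53 on the 3 arrays labelled Fancg-/-. Their RNA input and mixed marks move with these values, and their part in them was not tested. Mt2 differed by 2.58, 2.81 and 1.07. The erythroid median was 0.61, 1.02 and 0.68. Values of the largest rises varied between the groups. Emp1 differed by 3.25, -0.14 and 0.67, Slc7a11 by 2.38, -0.39 and 0.50, and Dusp16 by 2.50, 0.11 and 0.37. Klf9 differed by 1.80, 1.30 and 0.31, Lmna by 2.05, 1.13 and 0.79, and Trib3 by 2.11, 1.12 and 0.70. The direct difference from Fancc-/- was 3.39 ± 0.63 for Emp1 (limma adjusted p = 0.0625) and 2.77 ± 0.43 for Slc7a11 (adjusted p = 0.0609). The immediate early list's median was -1.05 in the double knockout, -0.51 in Fancc-/- and -0.40 in that labelled Fancg-/-, and Fos differed by -1.81, -0.33 and -0.20.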

How the data were processed

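RNA of 12 whole-marrow samples was measured on Affymetrix arrays. The table the authors deposited gives log2 signals, 1 for each probe set and array. Per the submitters' processing notes, RMA and Partek were used, with no version. RMA adjusts background, equalises the arrays' distributions and summarises probes, so a change in total RNA is not seen. Of 45101 probe sets, 34945 had 1 gene symbol and 932 several (not used), and 34741 matched the RefSeq gene table (GRCm38.p6) by Entrez ID. Genes above the array's 50th percentile on at least 3 arrays were tested with limma 3.58.1 (R 4.3.3). A single linear model held the 4 groups and 12 arrays (8 residual degrees of freedom) with a variance trend. Tests were 2-sided, adjusted by Benjamini-Hochberg over all 11527 genes, and called below 0.05. Precision is limited by the 3 arrays per group. The steps were tested on simulated data.

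The members and the 31 gene lists were chosen with earlier results of these data known, so counts within a list describe it and carry no test of their own. Named genes are the 15 largest called rises and falls (predicted genes passed over), up to 4 called members of each list or the 2 of smallest p, the 3 of smallest p against each single knockout, and the 8 genes with replicate 1 farthest above and below both other double knockout arrays. Alternatives covered the filter, the probe set of a gene, scaling, variance model, array weights, arrays in the fit, Xist as a covariate, X and Y genes, the replicate number as a block, and leaving out each array.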

Additional observations from a re-analysis of the deposited data

Results flagged for a closer look

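Eif2s3y and Kdm5d, Y-linked genes outside the autosomal comparison, were higher in the double knockout than in wild type by 5.96 and 2.26 on the log2 scale, with all 3 arrays above all 3 wild-type arrays for each gene. Slc7a11 lay below the wild-type mean on all 3 Fancc-/- arrays (mean difference -0.39, limma adjusted p = 0.661), each within the wild-type range. It lay above that mean on all 3 double knockout arrays, and the double knockout differed from Fancc-/- by 2.77 ± 0.43 (limma adjusted p = 0.0609). Ms4a3 differed by 0.16 on the arrays labelled Fancg-/- (limma adjusted p = 0.916), with all 3 above the wild-type mean but within the wild-type range. In the double knockout it differed by -0.61, with all 3 arrays below that mean, and the direct difference was -0.77 ± 0.13 (limma adjusted p = 0.172).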

How the results depend on the processing

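The number of genes called between double knockout and wild type (588) was 3265 with array weights, which gave double knockout replicate 1 a weight of 0.343 against 1.57 and 1.83 for the others. It was 0 with Xist as a covariate, and 212 when all arrays labelled Fancg-/- or only its replicates 1 and 3 were left out of the model, an alternative added after the data were seen (a lone array adds nothing to the spread, so both give the same fit). Leaving out 1 array gave 13 to 1766 calls. Against Fancc-/- (0 calls) the count was 35 above the 75th percentile, 1672 with array weights, 12 with median centring, 19 with the mean of all probe sets, 1 with X and Y genes and 0 to 1238 without 1 array. Against the arrays labelled Fancg-/- (0 calls) it was 2164 with array weights, 2 with only the groups compared, and 0 to 966 without 1 array. The cause of these differences was not tested. On probe sets without a shared-sequence ending, 2 genes changed sign, Lmna (-0.070, limma adjusted p = 0.78) and Rprd2 (-0.95, limma adjusted p = 0.0432). Of the 81 named called genes, 81 kept their call with array weights, robust moderation and X and Y genes, 79 with quantile normalization again and 71 with median centring. With only the groups compared 64 kept it, and 46 did without the arrays labelled Fancg-/-.

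The sample titles give no pairing of mice by replicate number. Deviations from the group means of wild-type and double knockout arrays of one number correlated at -0.077, -0.14 and -0.004. Arrays of unlike number were not compared, so these values cannot show whether a pairing existed. With the replicate block, 413 genes were called between double knockout and wild type (192 rises and 221 falls), and 65 of the 81 named genes kept their call.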
